A study of Mus musculus with 9 samples.

Results

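The 10 genes described here encode isozymes, different proteins that catalyse the same reaction, at 4 steps of glycolysis. They were chosen by name, with earlier results of these data known. They are the hexokinases Hk1, Hk2 and Hk3, the phosphofructokinases Pfkl, Pfkm and Pfkp, the enolases Eno1 and Eno3, and the pyruvate kinases Pkm and Pklr. All 10 were among the 17769 genes of the deposited count table, and all 10 passed the filter on low counts. RNA came from bone marrow of C57BL/6N mice, from cells sorted as MEP, the megakaryocyte-erythroid progenitors that form red cells and platelets. VF cells carried SclCre (a Cre recombinase driven by the Scl gene, active in blood stem and progenitor cells) and V617F, the common activating mutation of the kinase Jak2, and were taken 12 weeks after tamoxifen. E12 cells carried SclCre and a Jak2 mutation named only as Exon12, and were taken at 6 weeks. The control cells, labelled WT with no Cre named, were taken at 12 weeks, and per the labels tamoxifen was given on 5 consecutive days. Each group had 3 libraries, and the sources used here do not say whether these are separate mice, so p-values measure only the spread between libraries, which may be technical.

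Glycolysis turns glucose into pyruvate, and red cells, which have no mitochondria, depend on it for ATP. Hexokinase traps glucose by phosphorylation, phosphofructokinase makes the committed step, enolase forms phosphoenolpyruvate, and pyruvate kinase makes ATP in the last step. Each step is served by several genes with tissue preferences. Mature red cells use Hk1, the phosphofructokinase subunits of liver (Pfkl) and muscle (Pfkm) type, Eno1 and the red cell form made from Pklr, whereas Hk3 is typical of white blood cells, Pfkp of platelets, Eno3 of muscle and Pkm of most tissues that are neither liver nor red cell.

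The DNA before 4 of the starts is shown as a reference for the sequence of these genes, and no measurement here bears on promoter control. Pklr, Pfkm and Eno3 are shown as the members whose windows hold the letters AGATAA, a form of the site read by GATA factors. They were among the 4 members that fell in VF, of which Eno1 has no AGATAA in its windows. A link between these letters and the fall was not tested. Hk3 is shown as the member with the largest rise. All are on GRCm38.p6, from RefSeq, 5′ to 3′ on the strand of the gene, and capitals mark a match, on either strand, to AGATAA or to one of 3 further motifs named after the sequences. Pklr is chr3:89135892-89136141 (plus strand), Pfkm is chr15:98092339-98092588 (plus), Eno3 is chr11:70656926-70657177 (plus) and Hk3 is chr13:55021476-55021635 (minus). Each stretch ends just before the start listed first for that gene, apart from Eno3, where AGATAA runs across the start and is shown whole, and Hk3, where the 90 bases next to the start, which RefSeq counts to the gene, are left out. The last 20 bases of the Pklr stretch and the whole Eno3 stretch also lie within the RefSeq span of their genes, which begins further upstream. None of these stretches overlaps a GENCODE exon.
Pklr: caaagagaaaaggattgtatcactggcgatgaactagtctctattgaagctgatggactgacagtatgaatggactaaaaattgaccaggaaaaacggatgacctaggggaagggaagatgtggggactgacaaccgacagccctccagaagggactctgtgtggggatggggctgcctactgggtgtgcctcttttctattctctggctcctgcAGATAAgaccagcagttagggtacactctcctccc
Pfkm: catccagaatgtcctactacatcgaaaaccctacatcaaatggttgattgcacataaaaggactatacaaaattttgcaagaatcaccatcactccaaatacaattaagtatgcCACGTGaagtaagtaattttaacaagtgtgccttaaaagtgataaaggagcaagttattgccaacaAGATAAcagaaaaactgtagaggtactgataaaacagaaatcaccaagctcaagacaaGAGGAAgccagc
Eno3: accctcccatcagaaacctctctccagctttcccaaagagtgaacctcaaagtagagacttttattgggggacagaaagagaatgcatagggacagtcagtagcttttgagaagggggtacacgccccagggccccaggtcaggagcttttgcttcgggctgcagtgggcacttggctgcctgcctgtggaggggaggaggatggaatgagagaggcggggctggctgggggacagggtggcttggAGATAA
Hk3: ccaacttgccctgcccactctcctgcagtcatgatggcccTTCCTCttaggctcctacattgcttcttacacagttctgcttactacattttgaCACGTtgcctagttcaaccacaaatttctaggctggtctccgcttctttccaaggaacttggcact

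RefSeq start windows, from 250 bases before to 50 bases after a start, matched 10 of 10 members with 18 windows. AGATAA lay 35 bases before the first Pklr start, 70 bases before the first Pfkm start and 4 bases before the Eno3 start. It was found in 27.8% of the members' windows (5 of 18, from 3 of 10 members), and in 11.2% of the 32851 windows of all genes. Pklr has another listed start 481 bases downstream, whose window held none of the 4 motifs, and gene counts cannot tell the 2 starts apart. CCNCNCCC, a form of the site read by KLF and Sp factors that overlaps itself in C-rich runs, was found in 61.1% of the members' windows (7 of 10 members, all but Hk3, Eno3 and Pklr) and in 49.5% of all windows. GAGGAA, a form of the ETS site, was found in 33.3% of the members' windows (Hk1, Hk3 and Pfkm) and 28.3% of all. ACGTG, a core of the HIF and E-box sites, was found in 33.3% of the members' windows (5 of 10 members) and 19.6% of all. Windows of 1 gene can overlap and share a match, and Pfkm alone has 4. A match is a run of letters and does not show that a factor binds there.

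Library totals ran from 33838681 to 39736096 counts in WT and from 19256431 to 23499914 in the mutant groups. Despite these larger totals, 27.2% to 30.1% of genes had no count in a WT library, against 10.7% to 18.7% in VF and E12. Short genes weighed more in WT, where those under 1 kb gave 11.2% to 27.9% of counts against 6.92% to 8.97% in VF and E12. The WT libraries are also numbered 50 to 52 in their titles, and the VF and E12 libraries 1 to 5. The labels name no batch, and a difference in handling between WT and the mutant groups could not be told apart from genotype. Levels below are RPKM (counts scaled by TMM library size and by the deposited gene length in kb), which puts isozymes of unlike length on 1 scale. RPKM does not remove the difference in weight of short and long genes between WT and the mutant groups. Levels, sums and shares of isozymes compared across groups carry that difference. Log2 fold changes and adjusted p-values are from edgeR's quasi-likelihood test, called under 0.05. Erythroid markers (10 listed, 10 measured) summed to 21861 to 36682 CPM (counts scaled by library size alone) in WT, 8265 to 11639 in E12 and 1142 to 1749 in VF, most of it Car2 and Car1 in WT. Of the 10 genes, 7 fell and 0 rose in VF against WT, and 4 fell and 2 rose in E12 against WT. Of all tested genes 20.9% fell and 27.7% rose in VF, and 18.1% fell and 23.9% rose in E12. Megakaryocyte markers (10 of 10 measured) summed to 56.8 to 176 CPM in WT, 323 to 397 in E12 and 1686 to 2225 in VF, and Itgb3, Gp6 and Ppbp had no count in any WT library. Neutrophil and monocyte markers (10 of 10) summed to 155 to 780 CPM in WT, 1332 to 2241 in E12 and 6835 to 12860 in VF, and stem cell markers (7 of 7) to 95.96 to 212, 564 to 880 and 1873 to 1876 CPM. B and T cell markers (8 of 8) summed to 314 to 3781 CPM in WT, 125 to 237 in VF and 28.0 to 569 in E12. The part of these cell mixtures in the isozyme results was not tested, and in such bulk samples fewer cells of a type and less RNA per cell cannot be told apart.

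**Figure D1:**
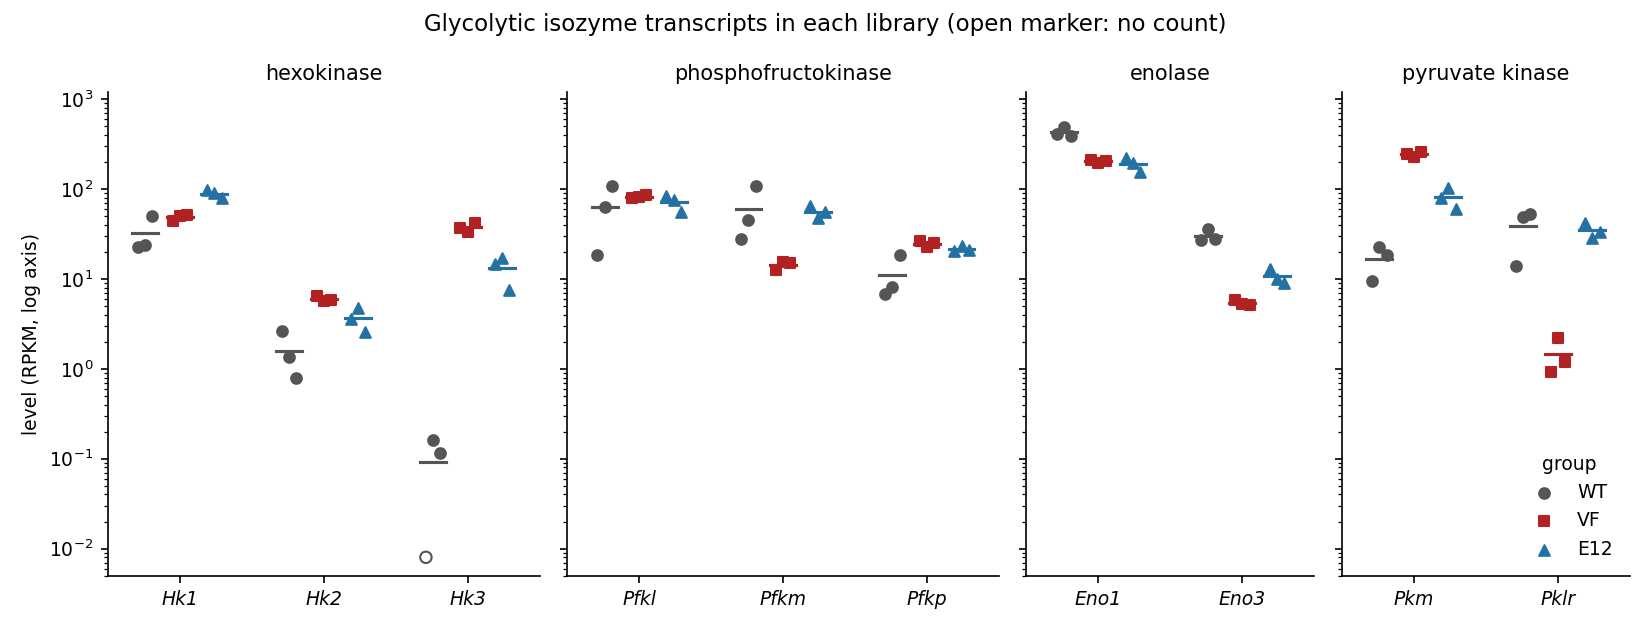
Level of each isozyme gene in each library, in RPKM on a log axis, in 1 panel per step. Points are libraries and short lines are group means (WT circles, VF squares, E12 triangles), and the open circle is WT 50, which had no Hk3 count. Pklr stood at 0.924 to 2.21 RPKM in VF and at 13.8 to 52.5 RPKM in WT, while Pkm stood at 228 to 257 RPKM in VF and at 9.47 to 22.4 RPKM in WT.

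Pyruvate kinase showed the clearest exchange of isozymes. Pklr, whose red cell form is the pyruvate kinase of erythrocytes (Entrez gene 18770, chromosome 3, 89136122 to 89146815), was at 13.8, 49.1 and 52.5 RPKM in WT 50, 51 and 52, at 0.924, 2.21 and 1.20 RPKM in VF 1, 2 and 3, and at 42.1, 28.8 and 32.99 RPKM in E12 1, 2 and 5. The VF libraries were below all others, and E12 lay inside the WT range. Pklr fell in VF against WT (edgeR, log2 fold change -4.73, adjusted p = 0.00053, SE 0.58), was higher in E12 than in VF (4.58, SE 0.58, adjusted p = 0.0069) and was not called between E12 and WT (-0.15, SE 0.49, adjusted p = 0.83). The E12 against VF call was lost without VF 1 (adjusted p = 0.057) or VF 3 (0.074), with log2 fold changes of 4.34 and 4.47.

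Pkm, the broadly used pyruvate kinase (Entrez gene 18746, chromosome 9, 59656576 to 59679372), ran the other way. It was at 9.47, 22.4 and 18.2 RPKM in WT 50, 51 and 52, at 242, 228 and 257 RPKM in VF 1, 2 and 3, and at 79.5, 103 and 59.3 RPKM in E12 1, 2 and 5. The groups did not overlap, with VF highest and WT lowest. Pkm rose in VF (edgeR, log2 fold change 3.86, adjusted p = 0.00027, SE 0.39) and in E12 (2.27, SE 0.36, adjusted p = 0.0027) against WT. In E12 it was lower than in VF (-1.59, SE 0.36, adjusted p = 0.049), a call lost when any VF or E12 library was left out (adjusted p from 0.11 to 0.22) and without the filter on low counts (0.053). Counts per gene do not separate the 2 proteins, PKM1 and PKM2, that splicing makes from Pkm.

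Per length, Pklr made up 59.2%, 68.6% and 74.2% of the pyruvate kinase transcripts in WT 50, 51 and 52. It made up 0.379%, 0.961% and 0.465% in VF 1, 2 and 3 and 34.7%, 21.8% and 35.7% in E12 1, 2 and 5, so Pklr led the step in every WT library and Pkm in every mutant library. The erythroid marker sums were 36682, 26840 and 21861 CPM in WT 50, 51 and 52, the reverse of the order of these shares. In VF 1, 2 and 3 they were 1142, 1749 and 1253 CPM, the same order as the shares. In E12 1, 2 and 5 they were 11639, 8265 and 11059 CPM, with E12 2 lowest in both. Across the groups both were highest in WT and lowest in VF. The part of erythroid cells in these shares was not tested. The step as a whole, both genes summed, was at 244 ± 14.4 RPKM in VF, 115 ± 20.7 RPKM in E12 and 55.2 ± 27.6 RPKM in WT (SD, n = 3). The summed level therefore followed Pkm and not Pklr across the groups.

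The balance of 2 isozymes within a library does not depend on library size, so 8 ratios were formed, as the log2 ratio of counts per kb with 0.5 counts added. Ratios within the hexokinase step, and within the phosphofructokinase step, share genes and are not independent. The share of ratios of other gene pairs that would pass or not overlap was not computed. The log2 ratio of Pklr to Pkm was 1.06 ± 0.50 in WT, -1.20 ± 0.56 in E12 and -7.48 ± 0.71 in VF (SD, n = 3), with no overlap between groups. An exact permutation test across the 3 groups gave p = 0.0036, the smallest that 1680 arrangements of the libraries can give, and 0.0057 adjusted over the 8 ratios. Between 2 groups an exact two-sided test with n = 3 cannot go below p = 0.1, and each of the 3 pairs gave 0.1. The differences were -8.54 for VF against WT, -2.27 for E12 against WT and 6.28 for E12 against VF on the log2 scale.

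**Figure D2:**
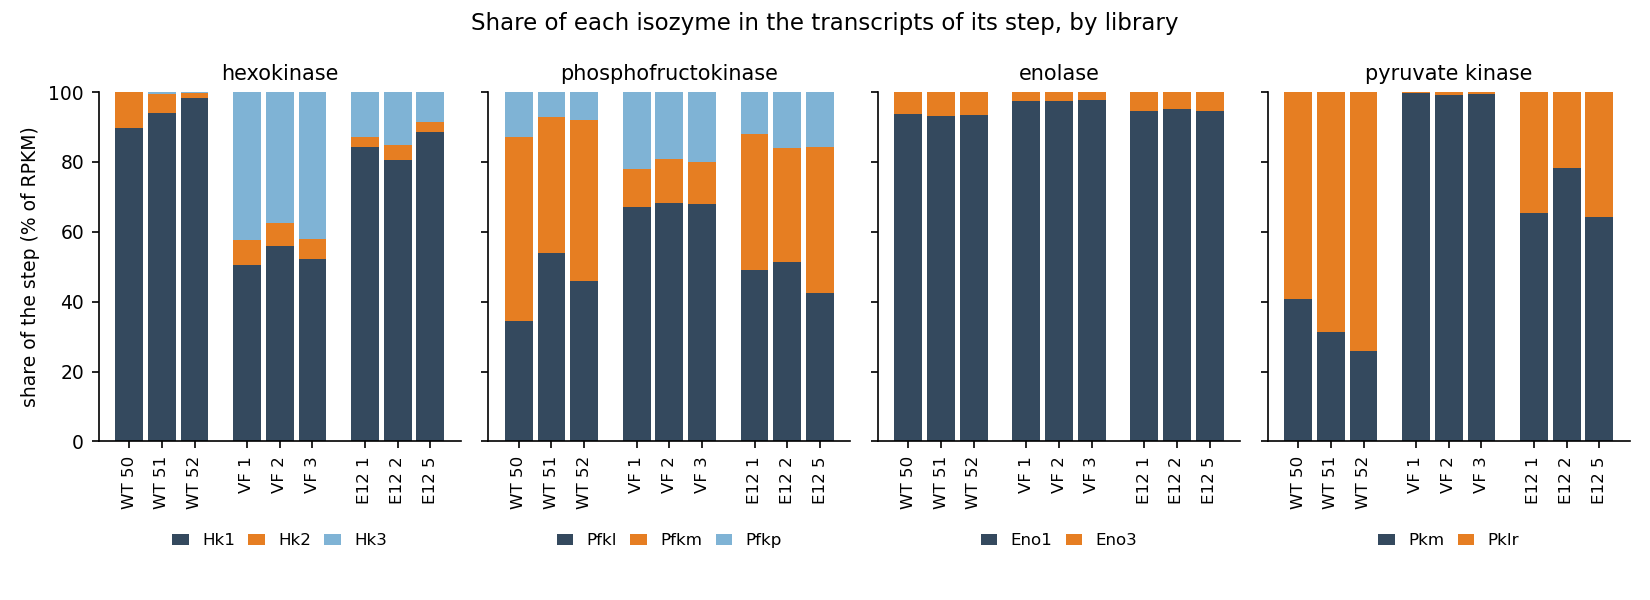
Share of each isozyme in the summed RPKM of its step (y axis, percent), with 1 bar per library and colours naming the genes of each step. In the pyruvate kinase panel Pklr takes 59.2% to 74.2% of the bar in WT and under 1% in VF, and in the hexokinase panel Hk3 takes 37.6% to 42.2% in VF and 8.50% to 15.3% in E12.

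At the hexokinase step Hk3, with few counts in WT, had the largest fold changes against WT, and Hk1 was also called in E12. Hk3, the hexokinase of white blood cells (Entrez gene 212032, chromosome 13, 55005985 to 55021475), had 0, 17 and 11 counts in WT 50, 51 and 52. Its levels were 0, 0.162 and 0.114 RPKM there, where a count of 0 allows up to 3 counts or 0.0507 RPKM in WT 50 (counting error only). They were 37.1, 33.3 and 41.6 RPKM in VF 1, 2 and 3 and 14.7, 17.1 and 7.56 RPKM in E12 1, 2 and 5. The 3 groups did not overlap. Hk3 rose in VF (edgeR, log2 fold change 8.52, adjusted p = 0.00018, SE 0.77) and in E12 (7.01, SE 0.73, adjusted p = 0.00066) against WT, and the difference of E12 from VF was not called (-1.51, SE 0.55, adjusted p = 0.18). Of the 10 neutrophil and monocyte markers, 8 rose in VF and 3 in E12 against WT, and none fell in either by edgeR. Among all tested genes 27.7% rose in VF and 23.9% in E12. The most abundant were Mpo, the granule peroxidase, at 129 ± 84.3 CPM in WT, 1446 ± 466 CPM in E12 and 6888 ± 2076 CPM in VF (SD, n = 3), and the protease Elane, at 124 ± 115 CPM, 56.1 ± 7.15 CPM and 974 ± 527 CPM. Their part in the Hk3 result was not tested, nor was that of the larger share of genes without a count in WT.

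Hk1, the general hexokinase and that of red cells, led the step in every library. It was at 22.5, 24.0 and 49.9 RPKM in WT 50, 51 and 52, at 44.3, 49.7 and 51.6 RPKM in VF 1, 2 and 3, and at 97.0, 89.8 and 78.8 RPKM in E12 1, 2 and 5. All E12 libraries were above all others, and VF and WT overlapped. Hk1 rose in E12 against WT (edgeR, log2 fold change 1.46, adjusted p = 0.009, SE 0.34), but with an offset per library for the trend of counts with gene length the value was 0.36 (adjusted p = 0.16). Against VF the E12 value of 0.87 was not called (SE 0.33, adjusted p = 0.21). VF against WT gave 0.60 (SE 0.33, adjusted p = 0.16), which turned to -0.59 with the length offset (adjusted p = 0.027), so no direction can be given for Hk1 in VF.

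Hk2, the hexokinase that insulin and hypoxia induce in other tissues, was the least abundant in VF and E12. Its levels were 2.61, 1.34 and 0.784 RPKM in WT, 6.42, 5.67 and 5.85 RPKM in VF and 3.54, 4.79 and 2.55 RPKM in E12, so VF was above the other groups. It was called higher in VF than in WT (edgeR, log2 fold change 1.92, adjusted p = 0.0077, SE 0.45). Leaving out WT 51 ended that call (adjusted p = 0.057), as did the length offset (0.39, adjusted p = 0.58), and its deposited length of 5511 bases is the longest of the 10. E12 against WT gave 1.20 (SE 0.44, adjusted p = 0.054) and E12 against VF -0.72 (SE 0.44, adjusted p = 0.44).

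In shares per length, Hk1 held 94.0% ± 4.33 of hexokinase transcripts in WT, 84.4% ± 4.11 in E12 and 52.9% ± 2.86 in VF (SD, n = 3). Hk3 held 0.287% ± 0.322, 12.2% ± 3.43 and 40.6% ± 2.62 in the same order, and Hk2 between 1.54% and 10.4% in every library. The log2 ratio of Hk3 to Hk1 was -9.08 ± 2.13 in WT, -2.83 ± 0.50 in E12 and -0.38 ± 0.17 in VF, and that of Hk3 to Hk2 was -4.67 ± 3.13, 1.82 ± 0.24 and 2.64 ± 0.17. Both differed across the groups (exact permutation p = 0.0036, adjusted 0.0057) and neither overlapped between any 2 groups. The ratio of Hk1 to Hk2 did not pass, at 4.41 ± 1.46, 4.65 ± 0.37 and 3.02 ± 0.20 in WT, E12 and VF (exact permutation p = 0.16, adjusted 0.19). The 3 genes summed to 33.8 ± 14.7 RPKM in WT, 91.9 ± 6.24 in VF and 105 ± 14.3 in E12. These sums are without the length offset. For Hk1 the trend with length was -1.13, -0.78 and -0.33 (log2) in WT 50, 51 and 52. It was 0.50 to 0.57 in VF and 0.40 to 0.47 in E12. The part of this trend in the higher sums was not tested.

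**Figure D3:**
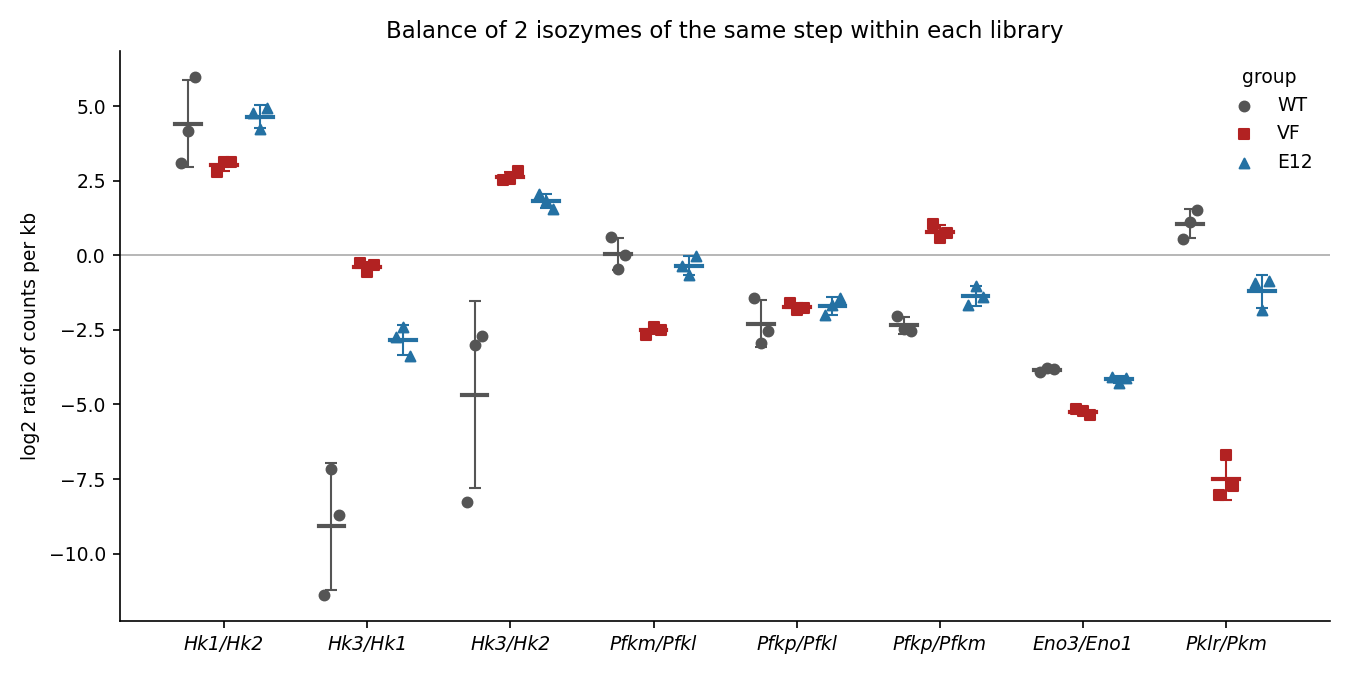
Log2 ratio of counts per kb of 2 isozymes of the same step (y axis), for the 8 ratios on the x axis. Points are libraries, thick lines group means and bars SD (WT circles, VF squares, E12 triangles). For Pklr/Pkm the 3 groups are apart, at means of 1.06, -7.48 and -1.20, while for Pfkp/Pfkl they overlap.

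Phosphofructokinase is a tetramer that mixes its subunits, and here the muscle type carried the change. Pfkm (Entrez gene 18642, chromosome 15, 98092589 to 98132447) was at 27.9, 45.0 and 108 RPKM in WT 50, 51 and 52, at 12.6, 15.2 and 15.2 RPKM in VF 1, 2 and 3, and at 65.3, 47.3 and 55.0 RPKM in E12 1, 2 and 5. VF was below every other library and E12 lay within the WT range. Pfkm fell in VF against WT (edgeR, log2 fold change -2.07, adjusted p = 0.0058, SE 0.45) and was not called in E12 against WT (-0.11, SE 0.44, adjusted p = 0.86), where the length offset gave a called fall (-0.74, adjusted p = 0.045). E12 against VF gave 1.96 (SE 0.45, adjusted p = 0.053), and 14 of 20 alternatives called it (adjusted p from 2.8e-05 to 0.25).

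Pfkl, the liver type and also a red cell subunit, was at 18.3, 62.4 and 107 RPKM in WT, 79.6, 80.95 and 85.6 RPKM in VF and 82.8, 74.9 and 55.9 RPKM in E12. The WT libraries spanned the others, and none of the 3 comparisons called Pfkl (log2 fold changes 0.39, 0.19 and -0.20, SE 0.51 each, adjusted p from 0.55 to 0.88 by edgeR). Pfkp, the platelet type, was at 6.81, 8.15 and 18.5 RPKM in WT, 26.2, 22.6 and 25.4 RPKM in VF and 20.5, 23.4 and 20.8 RPKM in E12, with WT below both mutant groups. It was called higher in VF than in WT (1.15, SE 0.36, adjusted p = 0.025 by edgeR) but not with the length offset (0.058, adjusted p = 0.84), in the fit of the 2 groups alone (0.072), or without WT 51, VF 1, VF 2 or VF 3 (0.054 to 0.072). E12 against WT gave 0.95 (SE 0.36, adjusted p = 0.057) and E12 against VF -0.20 (SE 0.35, adjusted p = 0.83).

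By share, Pfkm held 45.9% ± 6.86 of phosphofructokinase transcripts in WT, 37.7% ± 4.72 in E12 and 11.9% ± 1.10 in VF (SD, n = 3). Pfkl held 44.8% ± 9.80, 47.7% ± 4.66 and 67.7% ± 0.451, and Pfkp 9.27% ± 3.13, 14.7% ± 2.18 and 20.4% ± 1.55, in the same order. The log2 ratio of Pfkm to Pfkl was 0.05 ± 0.54 in WT, -0.34 ± 0.32 in E12 and -2.52 ± 0.13 in VF (exact permutation across 3 groups, p = 0.014, adjusted 0.019), and WT and E12 overlapped. The ratio of Pfkp to Pfkm was -2.35 ± 0.27, -1.37 ± 0.33 and 0.79 ± 0.24, with no overlap between groups (exact p = 0.0036, adjusted 0.0057). The ratio of Pfkp to Pfkl did not pass (-2.30 ± 0.78, -1.71 ± 0.29 and -1.73 ± 0.12, exact p = 0.32, adjusted 0.32). The summed level of the step did not separate the groups, at 53.0 to 233 RPKM in WT, 118 to 126 in VF and 132 to 169 in E12.

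Enolase kept 1 leading gene throughout, and from the counts both members fell in both mutant groups, which for Eno1 did not hold on the deposited levels. Eno1, the general enolase (Entrez gene 13806, chromosome 4, 150236708 to 150248879), was at 406, 486 and 392 RPKM in WT 50, 51 and 52, at 209, 197 and 206 RPKM in VF 1, 2 and 3, and at 222, 196 and 154 RPKM in E12 1, 2 and 5. WT was above all mutant libraries, while VF and E12 overlapped. Eno1 fell in VF (edgeR, log2 fold change -1.07, adjusted p = 0.0075, SE 0.25) and in E12 (-1.17, SE 0.25, adjusted p = 0.0072) against WT, and E12 against VF gave -0.10 (SE 0.25, adjusted p = 0.88). In the fit of 2 groups the E12 call was lost narrowly (adjusted p = 0.0501). On the authors' deposited log2 levels the calls were lost and VF turned upward (0.23, adjusted p = 0.53, and -0.11, adjusted p = 0.78, by limma). The Eno1 counts are uncertain for another reason. The retrotransposed copy Eno1b had 1.18 to 1.22 times the Eno1 count in every library (log2 fold changes -1.09 and -1.20 in VF and E12 against WT), and the counting rule for reads shared by near-identical copies is not given in the sources used here.

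Eno3, the enolase of muscle (Entrez gene 13808, chromosome 11, 70653125 to 70662513), was at 27.1, 35.6 and 27.9 RPKM in WT 50, 51 and 52, at 5.82, 5.25 and 5.08 RPKM in VF 1, 2 and 3, and at 12.97, 10.1 and 8.96 RPKM in E12 1, 2 and 5. The 3 groups did not overlap. Eno3 fell in VF (edgeR, log2 fold change -2.49, adjusted p = 0.00033, SE 0.27) and in E12 (-1.50, SE 0.26, adjusted p = 0.0035) against WT, and E12 against VF gave 0.99 (SE 0.26, adjusted p = 0.076). Its span overlaps that of the abundant gene Pfn1 over 3675 bases, and the library method does not mark strand. Pfn1 was at 20622, 4979 and 3744 CPM in WT 50, 51 and 52, against 43.5, 57.1 and 44.7 CPM for Eno3, and had log2 fold changes of -2.57 in VF and -2.66 in E12 against WT. Among other members, Pfkm overlaps Senp1 over 981 bases (at most 85.4 CPM) and Pfkp overlaps Pitrm1 over 285 bases (at most 415 CPM). Hk1 overlaps the noncoding Hk1os over 23378 bases (at most 11.6 CPM). Hk3 and Pklr overlap a neighbour over only 34 and 41 bases. The part of reads from overlapping genes was not tested.

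Eno3 held 6.57% ± 0.288 of the enolase transcripts in WT, 5.30% ± 0.360 in E12 and 2.57% ± 0.153 in VF (SD, n = 3). The log2 ratio of Eno3 to Eno1 was -3.83 ± 0.07, -4.16 ± 0.11 and -5.24 ± 0.09 in the same order, the tightest of the 8 ratios within WT, with no overlap between groups (exact permutation p = 0.0036, adjusted 0.0057). With the length offset the E12 against WT difference shrank from -0.33 to -0.081. The neuronal enolase Eno2 had 23 counts over VF and 0 over WT and E12, and did not pass the filter.

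**Figure D4:**
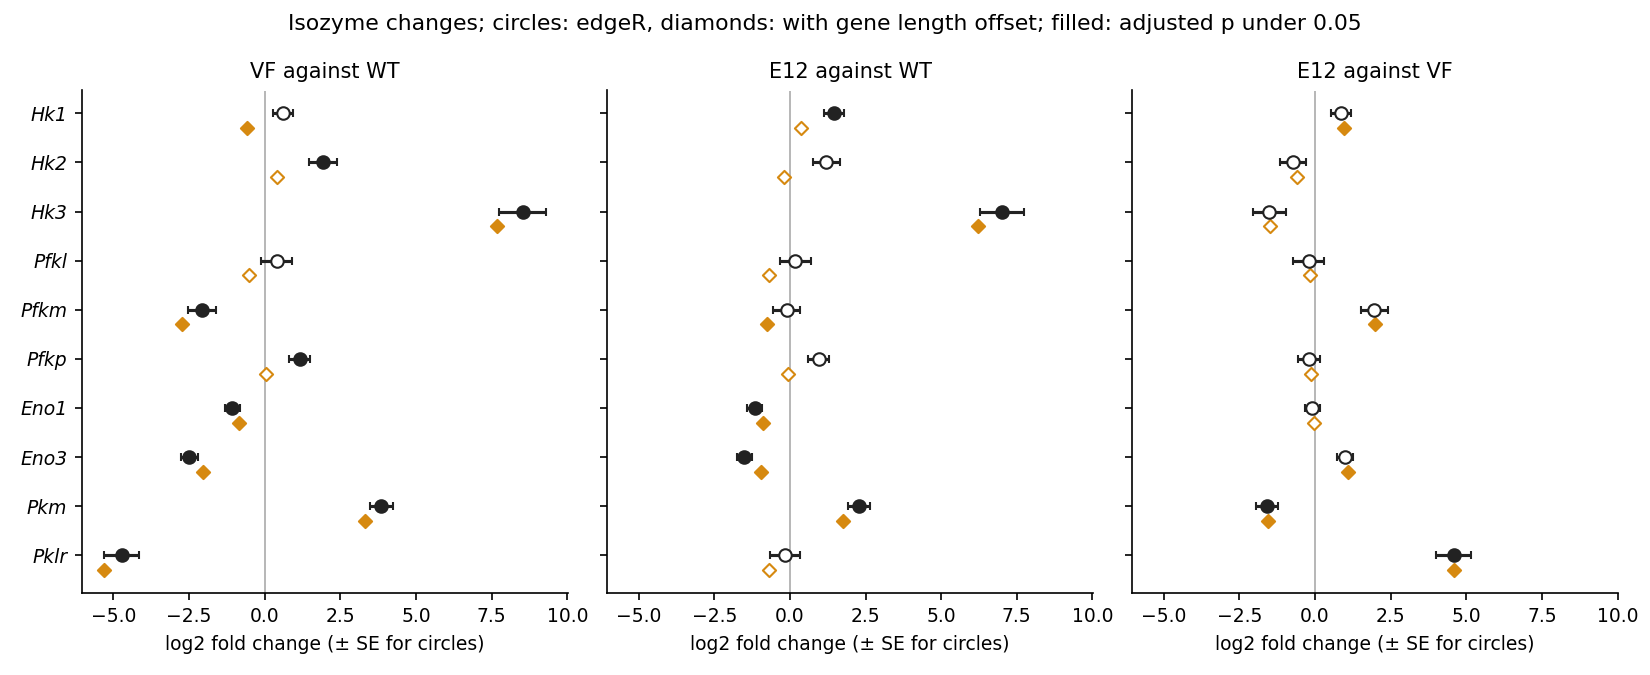
Log2 fold change (x axis) of the 10 genes in the 3 comparisons. Circles are the edgeR values with SE and diamonds the values with an offset for gene length, filled where the adjusted p is under 0.05. With the offset, Hk3, Pkm, Pklr, Pfkm, Eno1 and Eno3 stay called in the same direction in VF against WT. The Hk1, Hk2, Pfkl and Pfkp values move toward or across 0.

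Counted together, 8 of the 10 genes were called in VF against WT, 4 higher (Hk2, Hk3, Pfkp and Pkm) and 4 lower (Pfkm, Eno1, Eno3 and Pklr). Of all 13608 tested genes 48.6% were called, 27.7% higher and 20.9% lower. The median log2 fold change of the 10 was 0.49, and that of all tested genes 0.36. The all-gene median ran with length, from -1.77 under 1 kb and -0.79 at 1 to 2 kb to 0.89 at 3 to 5 kb and 1.22 over 5 kb. In E12 against WT it ran alike, from -1.84 to 1.11. In VF, Eno1 (1776 bases, -1.07) and Pfkp (4186 bases, 1.15) lay near the medians for their length, while Hk3, Pfkm, Pkm and Pklr lay far from theirs. In E12 against WT, 3 rose (Hk1, Hk3 and Pkm) and 2 fell (Eno1 and Eno3), where 42.0% of all genes were called (23.9% higher, 18.1% lower), with medians of 0.57 and 0.36. In E12 against VF, Pklr was higher and Pkm lower, 2 of 10 where 3.21% of all genes were called (2.19% higher, 1.02% lower), with medians of -0.15 and -0.046. The libraries of the 2 groups did not overlap for 8, 6 and 7 of the 10 in the 3 comparisons, against 62.7%, 53.3% and 59.5% of all tested genes. The first 2 comparisons share the WT libraries, and E12 differs from both other groups in weeks after tamoxifen as well as in genotype.

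The count for E12 against VF differed when the WT libraries, whose levels were the most spread, were kept out of the fit. With VF and E12 fitted alone, 7 of the 10 were called, where 48.0% of all tested genes were called: Hk1, Pfkm, Eno3 and Pklr higher in E12, and Hk2, Hk3 and Pkm lower. The direction of calls over all genes also turned with the length offset. Of the calls, 57% were higher in VF against WT and 56.9% in E12 against WT, but 39.4% and 41.8% with that offset, and the median of all genes moved from 0.36 to -0.19 and from 0.36 to -0.11. In E12 against VF the share of higher calls was 68.2%, against 44.5% by limma-voom and 52.8% in the fit of those 2 groups.

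The other glycolysis genes, which serve the steps between and after these or are further isozymes, had 13 of 15 listed in the count table and 11 tested. In VF against WT 1 rose and 2 fell (median -0.23), in E12 against WT 1 rose and 2 fell (median 0.006), and in E12 against VF 0 were called by edgeR, with 1 at an unadjusted p under 0.05. Of all tested genes 48.6%, 42.0% and 3.21% were called in these comparisons. Phosphoglycerate mutase Pgam1 rose in both mutant groups, at 9.77 ± 3.86 RPKM in WT, 34.7 ± 1.11 in VF and 22.7 ± 3.87 in E12 (SD, n = 3). Triose phosphate isomerase Tpi1 fell in both, at 566 ± 112, 242 ± 5.82 and 318 ± 25.9 RPKM. Aldolase Aldoa fell in VF, at 625 ± 119 against 353 ± 5.56 RPKM, and was at 384 ± 36.1 RPKM in E12. Lactate dehydrogenase Ldhb, the form of heart and red cells, fell in E12 (4.40 ± 1.15 against 30.6 ± 38.2 RPKM), with WT libraries at 74.7, 7.81 and 9.31 RPKM, whereas the muscle form Ldha, at 909 ± 196, 629 ± 10.3 and 913 ± 59.9 RPKM in WT, VF and E12, was not called in any comparison. Among these calls, that of Pgam1 in VF held under all 19 alternatives, while that in E12 was lost in the fit of 2 groups (adjusted p = 0.061 by edgeR) and without E12 2 (0.057). The Tpi1 call in E12 was lost with the length offset (-0.28, adjusted p = 0.16 by edgeR), in the fit of 2 groups (0.12) and without any 1 of the VF or E12 libraries. The Tpi1 values turned to 0.16 in VF and 0.40 in E12, and the Aldoa value in VF to 0.59, by limma on the deposited levels (adjusted p = 0.55, 0.14 and 0.07). The Aldoa call in VF was also lost in the fit of 2 groups (adjusted p = 0.088 by edgeR) and without E12 2 (0.0502). Leaving out VF 1, VF 2 or VF 3 ended it too (0.095, 0.089 and 0.095). The Ldhb call was lost with the length offset (-1.44, adjusted p = 0.094 by edgeR), in the fit of 2 groups, by limma-voom, and without any 1 of the E12 libraries. Without WT 50 the Ldhb value in E12 against WT moved from -2.80 to -1.08 (adjusted p = 0.0082 by edgeR), and that in VF against WT from -0.23 to a called 1.48 (adjusted p = 0.0018).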

How the data were processed

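Per the labels' protocols, PicoPure RNA went into Smart-Seq2 libraries, a method with neither molecular identifiers nor strand. The authors deposited whole-number counts for each gene with a gene length. The submitters' processing notes name STAR, limma, GRCm38 and mm10, with neither role nor version, and the sources used here do not give the counting tool or annotation. The authors also deposited log2 levels, which keep the order of the counts within a library (Spearman correlation 1) and have nearly equal sorted values between libraries. These served only as an alternative.

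The deposited counts entered edgeR 4.0.16 under R 4.3.3 unchanged: filterByExpr kept 13608 genes, libraries were scaled by TMM, and 9 libraries in 3 groups entered 1 quasi-likelihood fit. P-values are two-sided, with Benjamini-Hochberg adjustment across the 13608 genes. RPKM used these scaled library sizes and the deposited lengths. The 8 isozyme ratios were tested by exact permutation over libraries with scipy 1.17.1. Positions come from RefSeq on GRCm38.p6. In a run on simulated counts with 200 of 13608 genes changed, edgeR found 68% of 8-fold and 2% of 2-fold changes in VF against WT, 53% and 1% in E12 against WT, and 49% and 0% in E12 against VF, with 3, 2 and 2 false calls. In the data 48.6% and 42.0% of genes were called against WT, in VF and E12. The adjusted p depends on that share, so the simulated rates do not give the power of those comparisons. The simulation took its spread from the fit of all 9 libraries. In E12 against VF that fit called 437 genes and the fit of those 2 groups alone 6412. The simulated rates therefore do not describe that comparison when fitted without WT. The members and lists were chosen with earlier results of these data known. All members are named, with Eno2 and Eno1b (a further isozyme of these steps is not reported here), the called genes of the list of other glycolysis genes, Ldha and the most abundant markers. Car2 (15131 ± 2157, 977 ± 154 and 5319 ± 825 CPM in WT, VF and E12) and Car1 led the erythroid list, Pf4 and Itga2b the megakaryocyte list, Kit and Cd34 the stem cell list, Mpo and Elane the neutrophil and monocyte list, and Igll1 and Vpreb1 the B and T cell list. The alternatives tried were DESeq2 1.42.0, limma-voom, limma 3.58.1 on the deposited levels, scaling by RLE or upper quartile, other filters on low counts, fits of 2 groups, an offset per library for a lowess trend of counts with gene length, a replicate block, 2 counts added in the ratios, and leaving out libraries. Figures were drawn with matplotlib 3.10.9.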

Additional observations from a re-analysis of the deposited data

How the results depend on the processing

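Over 577 alternative values of the 30 changes of single genes, 488 kept their direction and side of the threshold, 50 became called, 20 lost the call and 19 changed sign. DESeq2 and RLE, upper-quartile and filter alternatives changed no sign. The number of genes called held within 1.5 times in VF against WT. In E12 against WT it was 2967 in the fit of 2 groups and 3612 to 7339 when single libraries were left out. In E12 against VF it was 437, but 1356 with the length offset, 6412 in the fit of 2 groups, 2553 without WT 50 and E12 5, 924 by limma-voom, 1784 by limma on the deposited levels, 1695 by DESeq2, and 19 to 3290 with single libraries left out, lowest without VF 3 and highest without WT 50. The replicate numbers 1 and 2 occur in both VF and E12. Same-numbered libraries deviated together weakly (r = 0.04 and 0.113), which cannot settle whether they share more than a number. With the replicate block, fitted on VF and E12 without WT, 5388 genes were called, fewer than the 6412 of the same fit without it, and Eno1 was 0.0645 (adjusted p = 0.69).

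Signs that changed for single genes, as log2 fold changes, were as follows. With the length offset Hk1 was -0.59 and Pfkl -0.51 in VF against WT, and Hk2 -0.20, Pfkl -0.68 and Pfkp -0.0766 in E12 against WT. Without WT 50 and E12 5, Pfkl was -0.12 in VF and -0.13 in E12 against WT, and Eno1 0.0809 in E12 against VF. By limma-voom Pfkm was 0.12 and Pklr 0.0767 in E12 against WT, and on the deposited levels these were 0.48 and 0.15, with Eno1 at 0.23 in VF against WT. With single libraries left out, Pfkl ran from -0.15 to 0.77 in VF and from -0.36 to 0.56 in E12 against WT, Pfkm from -0.54 to 0.34 in E12 against WT, and Eno1 from -0.22 to 0.0382 in E12 against VF.

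The 6 ratios that passed the permutation test across groups passed it under every alternative tried. Among all tested genes 48.6% in VF and 42.0% in E12 were called against WT, and ratios of other gene pairs were not tested. The number that passed therefore does not set isozymes apart from other genes. Hk1/Hk2 and Pfkp/Pfkl passed without WT 50 and E12 5 (adjusted p = 0.048 each), and their adjusted p ran from 0.024 to 0.36 and from 0.036 to 0.83 with single libraries left out. On the deposited levels the log2 differences of VF from WT were 0.0905 for Hk1/Hk2, -3.22 for Pfkm/Pfkl, -0.10 for Pfkp/Pfkl, -3.34 for Eno3/Eno1 and -9.59 for Pklr/Pkm. Those of E12 from WT were 1.55 for Hk1/Hk2, -0.0236 for Pfkp/Pfkl, 0.46 for Pfkp/Pfkm and -1.71 for Eno3/Eno1, and those of E12 from VF -1.28 for Hk3/Hk2, 2.74 for Pfkm/Pfkl, -2.66 for Pfkp/Pfkm, 1.63 for Eno3/Eno1 and 7.36 for Pklr/Pkm. With the length offset Pfkp/Pfkm was 2.77 and 0.66, and Eno3/Eno1 -1.19 and -0.081, for VF and E12 against WT. Without WT 50 and E12 5, Hk1/Hk2 was -0.57 in E12 against WT and Pfkp/Pfkl -0.12 in E12 against VF. With single libraries left out these 2 ran from -0.42 to 1.02 and from -0.12 to 0.18. The cause of these shifts was not tested. A filter of 10 counts in every library removed Hk3, which has 0 to 17 counts per WT library.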

Other observations

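Gapdh, the glycolytic enzyme often used as a reference transcript, was listed at only 4.82 to 9.55 RPKM in the 9 libraries, with 212 to 375 counts each. Before it in the pathway, Tpi1 stood at 235 to 691 RPKM and Aldoa at 343 to 749 RPKM. After it, Pgk1 was at 44.3 to 105 RPKM, while Pgam1, at 5.79 to 35.7 RPKM, overlapped the range of Gapdh. The ratio of Eno1b to Eno1 counts was also nearly constant within groups, at 1.21 to 1.22 in WT, 1.20 in each VF library and 1.18 to 1.19 in E12. How reads that match several near-identical copies were counted is not given in the sources used here, and its part in both values was not tested.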
